A study of Mus musculus with 195 samples.

Results

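A set of 9 long noncoding RNA genes was followed through a single-cell polyadenylation-site data set from mouse stem cells: Malat1, Neat1, Gas5, Snhg1, Snhg3, Snhg5, Snhg6, Snhg8 and Snhg12. These 9 genes were listed by name, with earlier results of these data known, out of 19736 genes in the gene count table. For 8 of them the table held an identifier of their own, and Snhg8 was found by the position of its 3′ end. Polyadenylation sites were counted by BATSeq, which tags each captured 3′ end with a random molecular barcode, so that 1 count stands for 1 captured transcript molecule and not for 1 sequencing read. Since molecules are counted at their 3′ ends, levels are given as molecules per 10000 molecules on genes, with no division by transcript length. Some ends were listed under more than 1 identifier, and each such entry is part of this total.

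Populations of 48 cells each were sorted for small cells in G1. ESC-2i were embryonic stem cells of the 46C line, which carries a Sox1-GFP reporter, kept in serum-free medium with LIF at 10 ng/ml and with inhibitors of MEK (PD0325901 at 1 µM) and GSK3 (CHIR99021 at 3 µM). ESC-FCS were the same line in medium with 10% fetal serum and the same amount of LIF. NSC were neural stem cells derived from these embryonic stem cells and grown with EGF and bFGF at 10 ng/ml, without LIF or serum. A further 48 ESC-FCS cells (the control cells) and 1 pool of 48 ESC-FCS cells were made on the same day, apart from the main ESC-FCS cells, and 2 pools of 48 ESC-2i cells were sorted into another lysis buffer and purified on beads. As far as the labels say, each population was 1 culture, so no p-value was computed between populations. Intervals beside levels, shares and ratios are exact 95% intervals that cover counting error only.

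Cells with at least 1000 molecules that were also present in the gene table entered the levels: 33 ESC-2i, 33 ESC-FCS and 41 NSC cells. An ESC-2i cell held 5342 to 21049 molecules, an ESC-FCS cell 1079 to 14819, an NSC cell 1234 to 9037 and each of 42 control cells 1323 to 14547. Genes of the mitochondrial genome took 5.09% of the molecules of NSC and 1.72% and 1.94% of those of ESC-2i and ESC-FCS. With these genes left out of the total, the median log2 ratio over all genes went from -0.057 to -0.006 for NSC against ESC-2i. For NSC against ESC-FCS it went from 0.047 to 0.094. The numbers of the 9 genes past 2-fold higher or lower stayed the same in each comparison of populations. A list of 10 embryonic stem cell markers summed to 1.25 molecules per 10000 in NSC, where 7 of its genes, Nanog and Pou5f1 included, had no molecule, against 28.4 (ESC-FCS) and 32.5 (ESC-2i). The list of 10 neural stem cell markers summed to 52.2 in NSC, with Pax6 at 0, and to 3.93 and 3.56 in the ESC populations. A neuron list summed to 2.71 to 5.21 in each population, and lists of fibroblasts, primitive endoderm and astrocytes to between 0 and 0.543. Of these last lists only 4 of 5, 2 of 5 and 2 of 4 genes were found. None of the 144 cells of the populations shared its pair of cell and batch barcodes with another of these cells, whereas the 48 control cells reused such pairs in libraries of their own. All 9 genes together made up 0.201% of the molecules in NSC, 0.208% in ESC-FCS and 0.233% in ESC-2i.

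Malat1 and Neat1 are neighbors on chromosome 19 and encode abundant nuclear RNAs. Malat1 RNA resides in nuclear speckles, and its mature 3′ end is made by RNase P cleavage and protected by a triple helix in place of a poly(A) tail. Neat1 gives a short polyadenylated transcript and a long one without a poly(A) tail, and the long transcript is the scaffold of paraspeckles. The other genes are hosts of small nucleolar RNAs (snoRNAs), which guide ribose methylation (box C/D) or pseudouridylation (box H/ACA) of ribosomal RNA. The snoRNAs are released from the introns of the host, while the spliced host RNA, which codes for no long protein, is commonly degraded by nonsense-mediated decay. BATSeq captures polyadenylated 3′ ends, so that the counts of a host gene are mostly those of its polyadenylated RNA.

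In the GENCODE annotation of the GRCm38 build (release M21), Malat1 spans chr19:5795690-5802672 on the minus strand and Neat1 chr19:5824708-5845478 on the minus strand. Neither holds an annotated snoRNA. Gas5 lies at chr1:161034422-161038539 on the plus strand and holds 10 small RNA entries, a microRNA (Mir5117) and snoRNAs, among them the box C/D snoRNAs Snord47, Snord78 and Snord80. Snhg1, at chr19:8723475-8726443 on the plus strand, holds 8 entries, including Snord22. Snhg12, at chr4:132308623-132311024 on the plus strand, holds 5, including Snora44 and Snora61. Snhg3, at chr4:132348014-132353686 on the minus strand, holds the box H/ACA snoRNAs Snora73a and Snora73b. Snhg5, at chr9:88521050-88522929 on the minus strand, holds Snord50a and Snord50b. Snhg6, at chr1:9941959-9944118 on the minus strand, holds Snord87, and Snhg8, at chr3:123507552-123508404 on the minus strand, holds Snora24. The gene models of Zbtb37, Mcmdc2 and Rcc1 overlap those of Gas5, Snhg6 and Snhg3 in this order.

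The sequence before the most used site set the host genes and Neat1 apart from Malat1. The 30 bases that end at the most used site of each gene are given 5′ to 3′ on the strand of the gene, with the poly(A) signal hexamer in capitals where AATAAA or ATTAAA was found. Only this strand was searched. The windows were taken from the annotated transcripts of the same build, with the deposited positions read as counted from 1.
Neat1, chr19:5842303-5842332, minus strand: cagcaaAATAAAggtttgagattgaagctt
Gas5, chr1:161038505-161038534, plus strand: taaaattttaccATTAAAgtgtattataac
Snhg1, chr19:8726411-8726440, plus strand: tgtttgttctagcAATAAAtgctctttatg
Snhg3, chr4:132351935-132351964, minus strand: gttaaaatctgaATTAAAgcatttgaatgt
Snhg5, chr9:88521056-88521085, minus strand: gggagtattgaAATAAAaaacattcaattg
Snhg6, chr1:9942026-9942055, minus strand: ataagttatatataAATAAAcagttattct
Snhg8, chr3:123507558-123507587, minus strand: ttttatattaAATAAAagatgtttggtgtg
Snhg12, chr4:132310994-132311023, plus strand: cagttggttcAATAAAgacttttggaaagt

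Each of these 8 windows held a hexamer, which started 16 to 24 nt before the site. Among the main sites of 5579 genes with at least 20 molecules, 68.3% of the windows held AATAAA, 17.4% held ATTAAA and 83.6% held either, with a median start 19 nt before the site. For Malat1, by contrast, the windows before its 3 most used sites held neither hexamer, as was the case at 16.4% of the main sites of all genes. They are shown because most Malat1 molecules ended at them or close by.
Malat1, chr19:5801779-5801808, minus strand: aagccgaagaatagaagatagaaagaagca
Malat1, chr19:5801803-5801832, minus strand: gtacttaaaggcacaggtagtaggaagccg
Malat1, chr19:5801951-5801980, minus strand: gaaaaaacaaaaaggttaggctagtatttg

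The next 15 bases of the gene held 11, 9 and 8 A at these Malat1 sites. The authors had removed reads from stretches with a still higher A content behind the site. Whether the sites arose from priming on A-rich stretches inside the transcript was not tested.

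Malat1 molecules were spread over 32 positions in the 3 populations, against 2 to 9 positions for Neat1 and each host gene other than Snhg8. For Snhg8 only molecules at its annotated end were counted. The first site, 893 nt from the 5′ end of the gene, held 24.4% of 385 molecules, the second, 869 nt from it, 22.6%, and the third, 721 nt from it, 12.2%. Over 2297 genes with at least 60 molecules the median share of the most used site was 88.9%, and 1.04% of these genes had a lower share than Malat1. The first 1000 nt of the gene, which is 6983 nt long, held 67.2% of its molecules in NSC (54.6 to 78.2%), 74.5% in ESC-FCS (66.6 to 81.4%) and 76.3% in ESC-2i (69.3 to 82.4%). The last 200 nt held 11.9% in NSC (5.30 to 22.2%), 6.21% in ESC-FCS and 5.20% in ESC-2i, and the intervals of the populations overlapped. The first site alone took 16 of 67 molecules in NSC (23.9%), 39 of 145 in ESC-FCS (26.9%) and 39 of 173 in ESC-2i (22.5%). The mapped ends of Malat1 molecules were thus dispersed in each population.

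Neat1 molecules ended almost entirely at 1 site, 3176 nt into a gene of 20771 nt and 4 nt from an annotated transcript end. This site, that of the short transcript, held 26 of 32 molecules in NSC, 31 of 32 in ESC-FCS and 98 of 104 in ESC-2i. Beyond 3500 nt, in the part of the gene that only the long transcript covers, 5 of 32 molecules were found in NSC, from 4 cells, and none of 104 in ESC-2i or of 32 in ESC-FCS. The upper limits of these zero shares were 3.48% and 10.9%, against an interval of 5.28 to 32.8% in NSC. Library batch 1 (wells of rows A to D) gave 4 of 21 in NSC and batch 2 (rows E to H) 1 of 11. The pools and control cells gave 1 molecule beyond 3500 nt, in an ESC-2i pool. The NSC molecules beyond 3500 nt ended 5523, 7648, 9016 and 18719 nt from the 5′ end of the gene, and none ended at its 3′ end. Whether they arose from priming inside the transcript was not tested.

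**Figure D1:**
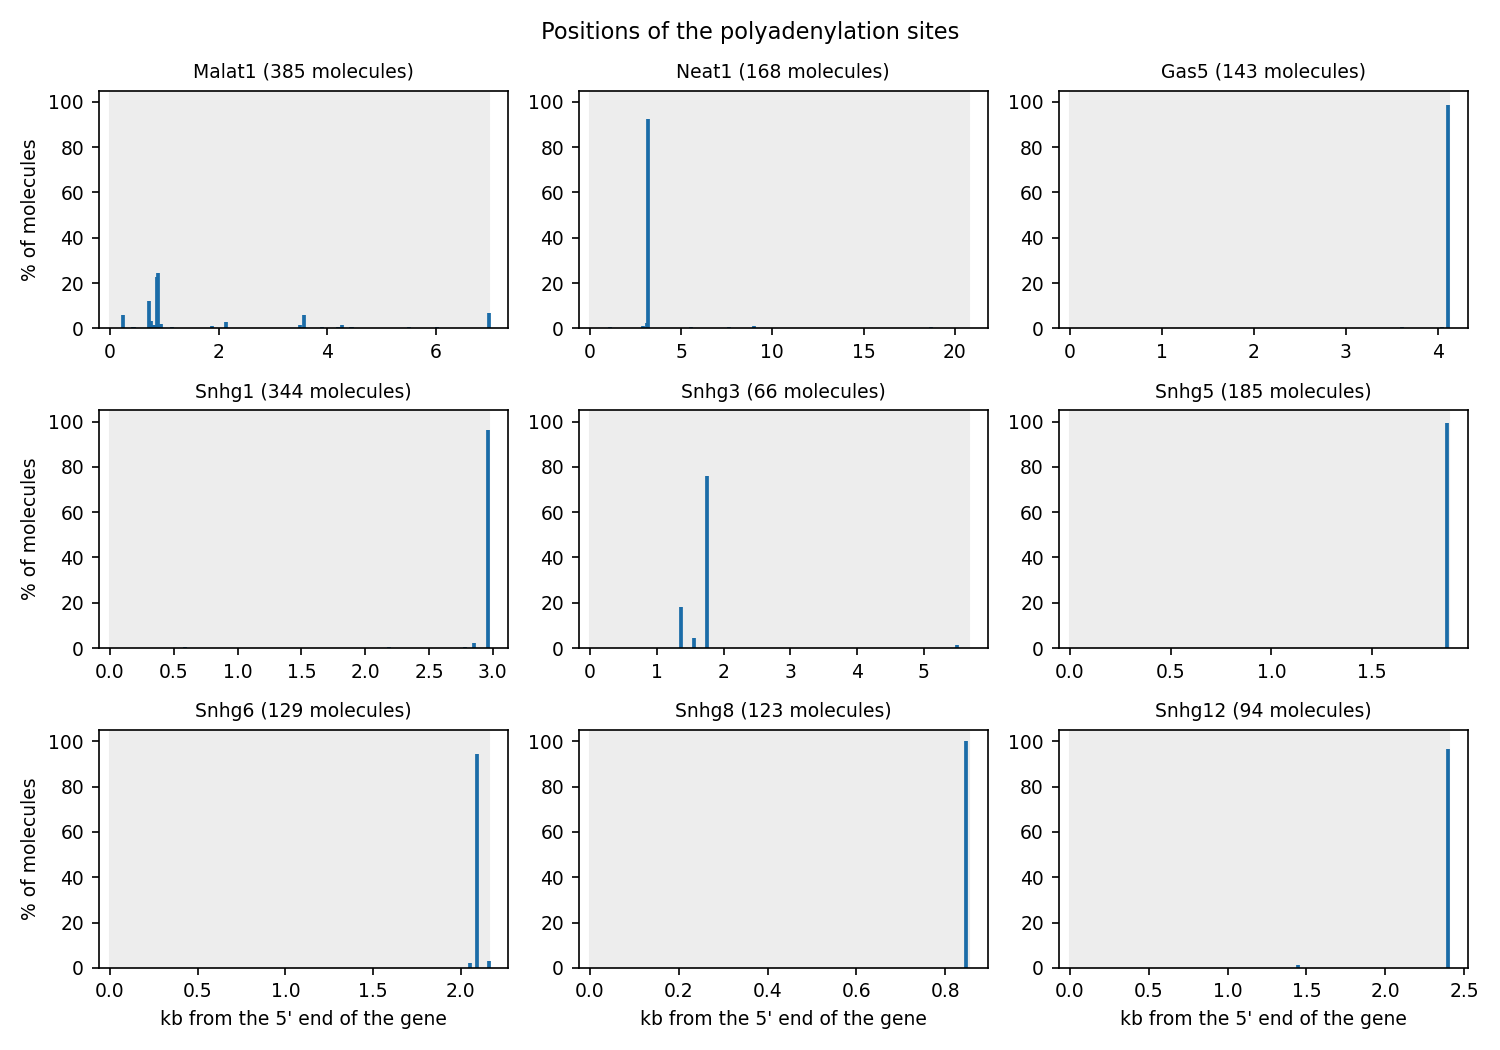
Positions of polyadenylation sites along each gene, in kb from its 5′ end (x axis; the grey area is the annotated gene), with the percentage of the gene's molecules in the 3 populations that ended there (y axis, bars; the number of molecules is in each title). Neat1 and the host genes other than Snhg3 and Snhg8 end at 1 site with over 90% of the molecules, whereas the first site of Malat1 holds 24.4%. Snhg8 was counted only at its annotated end.

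The host genes ended mostly at annotated transcript ends. The main site held 98.6% of the molecules of Gas5, 96.2% of Snhg1, 99.5% of Snhg5, 94.6% of Snhg6 and 96.8% of Snhg12, at 0 or 1 nt from an annotated transcript end. Snhg8 had a single site by construction, as only molecules within 12 nt of its annotated end were counted for it. For Snhg3 the main site held 75.8%, at chr4:132351935. A second Snhg3 site at chr4:132352329 held 12 of 66 molecules and lay in an intron, 7 nt before the 3′ end of Snora73b (chr4:132352322-132352526, minus strand). The bases of the snoRNA after this site read aacaaaa. Whether the site arose from priming on these A-rich bases was not tested. The window before the site is shown because it ends within the snoRNA, not at an exon, and holds neither hexamer.
Snora73b end, chr4:132352329-132352358, minus strand: accatgactgaggagacaaaccatgcagga

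All 12 molecules at the Snora73b end came from ESC-FCS, where they were 41.4% of 29 Snhg3 molecules (23.5 to 61.1%) and were found in 10 cells. A further 8 molecules at this end were listed under the identifier of Snora73b itself and are not counted here, as the same molecules may be listed under both. In ESC-2i none of 24 molecules ended there, which allows up to 14.2%, and in NSC none of 13, which allows up to 24.7%. In ESC-FCS, library batch 1 had 7 of 13 molecules at this end and batch 2 had 5 of 16. Ends within a few bases of it were also present in libraries made apart, with 6 of 54 Snhg3 molecules in 5 control cells (11.1%), 11 of 53 in the ESC-FCS pool (20.8%) and 4 of 17 in the ESC-2i pools (23.5%). Such ends were thus not detected in the ESC-2i cells but were in the ESC-2i pools. A few Snhg1 and Snhg12 molecules of ESC-FCS ended at other snoRNAs too, 2 at Gm25855 and 1 at Gm23246 within Snhg1 and 1 at Snora44 within Snhg12, and none did so in ESC-2i or NSC.

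The share of the main site differed by at least 10 percentage points for 1 of the 7 genes with at least 20 molecules in both ESC populations, against 20.4% of all genes so compared. This gene was Snhg3, at 91.7% in ESC-2i (22 of 24) and 51.7% in ESC-FCS (15 of 29), a difference of -39.9 points. By reads, of which 36 of 236 in ESC-FCS lay at the Snora73b end, the difference was below 10 points. Within a batch it was 5 of 6 against 5 of 13 molecules and 17 of 18 against 10 of 16, too few for the comparison. Between NSC and ESC-2i, 1 of 5 genes passed, with a background of 24.9%, and between NSC and ESC-FCS 1 of 4, with a background of 23% of genes. In both cases it was Neat1, with 81.3% at its main site in NSC against 94.2% in ESC-2i and 96.9% in ESC-FCS. These counts lay near or below the background, and the Snhg3 and Neat1 values rest on 24 and 32 molecules in the smaller group. Snhg8, with a single site, was not part of this comparison.

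Malat1 had the most counted molecules of the 9 genes in ESC-FCS and NSC. Most of them lay in the first 1000 nt of the gene, and how their number relates to the amount of Malat1 RNA was not tested. Its 145 molecules in ESC-FCS gave 6.40 per 10000 (5.40 to 7.53), its 173 in ESC-2i gave 4.70 (4.02 to 5.45) and its 67 in NSC gave 4.41 (3.42 to 5.60). Per cell the level ranged from 0 to 32.0 per 10000 in ESC-FCS with a median of 4.25, from 0 to 20.1 in ESC-2i with a median of 3.61, and from 0 to 27.8 in NSC with a median of 2.00. The cells of the populations overlapped over most of this range. Malat1 was seen in 28 of 33, 31 of 33 and 24 of 41 cells in this order, and a thinning of each cell to 1000 molecules would leave it in 36.8%, 33.7% and 29.0% of the cells. At equal depth the populations were thus closer than the raw counts of cells.

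Neat1 was detected with 104 molecules in ESC-2i (2.82 per 10000, 2.31 to 3.42), 32 in NSC (2.11, 1.44 to 2.97) and 32 in ESC-FCS (1.41, 0.966 to 1.99). Cells ranged from 0 to 7.38 per 10000 in ESC-2i (median 2.68), from 0 to 30.7 in NSC (median 0) and from 0 to 6.55 in ESC-FCS (median 0.806). ESC-2i had the highest pooled level and ESC-FCS the lowest, and the interval of NSC overlapped those of both.

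Gas5, a host gene named for its rise in growth-arrested cells, showed the widest gap between the ESC populations. Its 98 molecules in ESC-2i gave 2.66 per 10000 (2.16 to 3.24), its 27 in NSC gave 1.78 (1.17 to 2.59) and its 18 in ESC-FCS gave 0.794 (0.471 to 1.25). Single cells reached 7.51 per 10000 in ESC-2i (median 2.17), 13.8 in NSC (median 0) and 9.27 in ESC-FCS (median 0), all from a lowest value of 0. It was seen in 28 of 33 ESC-2i cells but in 19 of 41 NSC and 12 of 33 ESC-FCS cells. Thinned to 1000 molecules, 23.2%, 20.1% and 10.9% of the cells would keep a molecule. Gas5 molecules were backed by few reads, 328 for the 98 molecules of ESC-2i against 2715 for the 173 of Malat1.

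Snhg1 was the most abundant host gene. It had 52 molecules in NSC (3.42 per 10000, 2.56 to 4.49), 106 in ESC-FCS (4.68, 3.83 to 5.66) and 186 in ESC-2i (5.05, 4.35 to 5.83). Its level per cell ran from 0 to 9.99, 27.8 and 22.0 per 10000 in these populations, with medians of 2.91, 4.07 and 4.28, and it was found in 25 of 41, 24 of 33 and 32 of 33 cells. The intervals of these 3 levels overlapped, least between NSC and ESC-2i.

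Snhg5 came to 3.09 per 10000 in NSC (47 molecules, 2.27 to 4.12), 2.47 in ESC-2i (91 molecules, 1.99 to 3.03) and 2.07 in ESC-FCS (47 molecules, 1.52 to 2.76), with medians per cell of 3.04, 1.86 and 1.57. Snhg6 was highest in ESC-2i, at 2.39 per 10000 (88 molecules, 1.92 to 2.94), against 1.06 in ESC-FCS (24 molecules, 0.678 to 1.58) and 1.12 in NSC (17 molecules, 0.652 to 1.79). Its medians per cell were 1.86, 0.819 and 0, and 29 of 33, 19 of 33 and 13 of 41 cells held a molecule. The Snhg5 intervals overlapped, while the Snhg6 interval of ESC-2i lay apart from those of both other populations.

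Snhg8, Snhg12 and Snhg3 were the least abundant in ESC-2i but not in the other populations. Snhg8 was at 2.44 per 10000 in NSC (37 molecules, 1.72 to 3.36), 1.63 in ESC-FCS (37 molecules, 1.15 to 2.25) and 1.33 in ESC-2i (49 molecules, 0.984 to 1.76). In the same order Snhg12 was at 0.922 (14 molecules, 0.504 to 1.55), 1.46 (33 molecules, 1.00 to 2.04) and 1.28 (47 molecules, 0.937 to 1.70). Snhg3 was at 0.856 (13 molecules, 0.456 to 1.46), 1.28 (29 molecules, 0.857 to 1.84) and 0.652 (24 molecules, 0.417 to 0.969). For Snhg12 and Snhg3 the intervals of each pair of populations overlapped, and with 13 or 14 molecules in NSC their ratios to ESC-2i had wide intervals, 0.614 to 2.68 for Snhg3 and 0.367 to 1.33 for Snhg12.

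**Figure D2:**
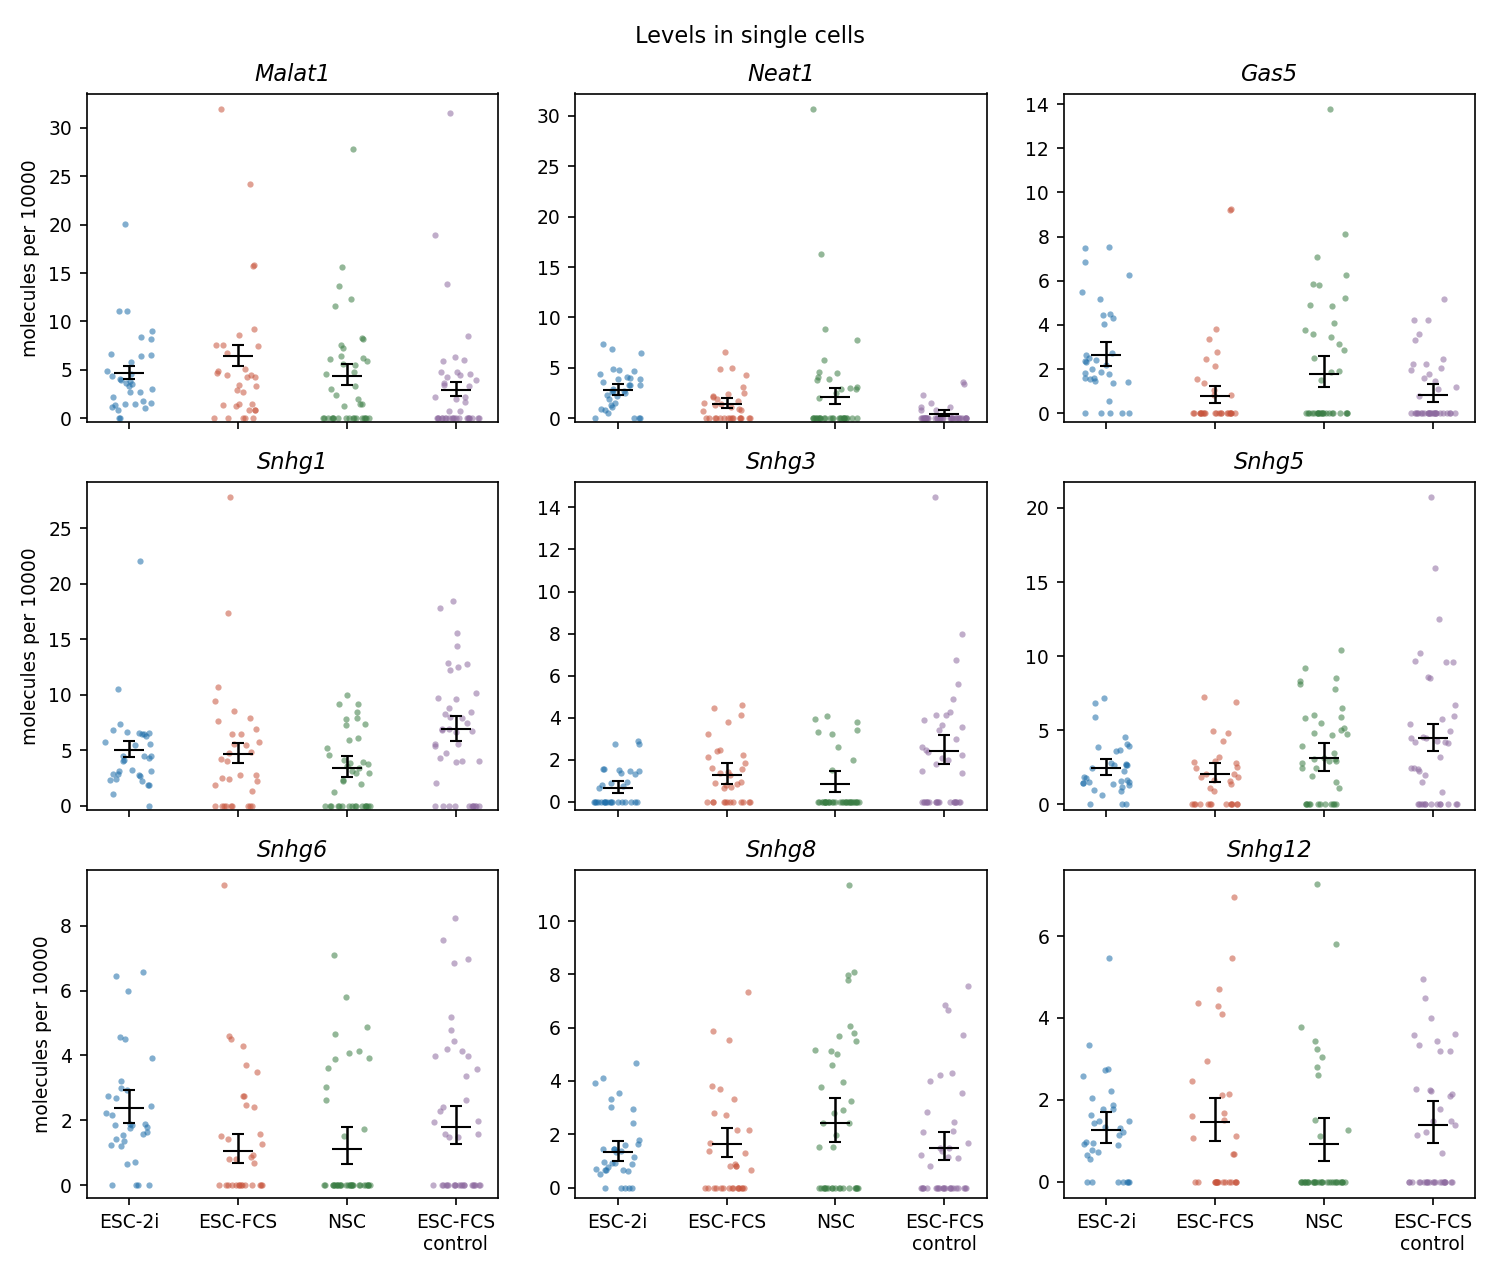
Level of each gene in single cells (y axis, molecules per 10000 molecules on genes) in ESC-2i, ESC-FCS, NSC and the separately made ESC-FCS control cells; each point is a cell, the long bar is the pooled level and the whiskers its exact 95% counting interval. Points of all groups reach 0 and overlap, and the pooled Gas5 level is 2.66 in ESC-2i against 0.794 in ESC-FCS.

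Snhg8 had no identifier of its own in the count tables. Its 3′ end was counted under the identifier of the snoRNA it hosts, Snora24 (31 molecules in NSC, 34 in ESC-FCS, 42 in ESC-2i), and under that of Ndst3, a gene that starts upstream of Snhg8 on the same strand (32, 24 and 32 molecules). Both identifiers had counts in 17 of the 22 NSC cells that held either, 13 of 18 ESC-FCS cells and 18 of 28 ESC-2i cells. The larger of these counts in each cell was used above, and the sum of both, 4.15, 2.56 and 2.01 per 10000, is the upper limit. Such double entries were not particular to Snhg8: the main end of Rpl37 carried 3329 molecules under its own identifier and 3355 under that of Snord72. Entries under snoRNA identifiers came to 69.8 per 10000 molecules on genes in NSC, 108 in ESC-FCS and 119 in ESC-2i, against 0.224 in the control cells. The control cells and pools listed the Snhg8 end only under Ndst3, so the ratios of Snhg8 between them and cells of the populations compare unlike counts. Snhg1 was listed under an older Ensembl identifier, ENSMUSG00000097188.

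Between ESC-FCS and ESC-2i, 2 of the 9 genes were past 2-fold, both lower in ESC-FCS, where 14.5% of the 5006 genes compared were past 2-fold lower and 8.17% higher, 22.7% in all. Gas5 was lower, at a ratio of 0.298 (0.170 to 0.497), and so was Snhg6, at 0.443 (0.270 to 0.703). Neat1 stood at the limit with 0.50 (0.325 to 0.749) and Snhg3 close to it on the other side with 1.96 (1.10 to 3.52). Malat1 was 1.36 times as high in ESC-FCS (1.08 to 1.71), and the intervals of Snhg1, Snhg5, Snhg8 and Snhg12 held a ratio of 1. Counted only at sites within 10 nt of an annotated transcript end, which leaves out the Snora73b end, the log2 ratio of Snhg3 went from 0.97 to 0.05. Across the 4 ways to set a batch of 1 population against a batch of the other, Gas5 lay between 0.138 and 0.535, Snhg6 between 0.304 and 0.612 and Neat1 between 0.277 and 0.699, always below 1. Snhg3 lay between 1.08 and 4.82, and Malat1 between 0.845 and 1.89, so that the order of the ESC populations for Malat1 depended on the batch.

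Between NSC and ESC-2i, 1 gene was past 2-fold, against 24.3% of 4802 genes lower and 19.3% higher in NSC, 43.6% in all. This was Snhg6, at 0.469 (0.261 to 0.794) and at 0.355 to 0.625 across the batch pairings. Snhg8 was 1.83 times as high in NSC (1.16 to 2.86), and from the sum of both identifiers its levels of 4.15 and 2.01 would put it past 2-fold; over the batch pairings it ranged from 0.917 to 3.59. Snhg1 stood at 0.678 (0.489 to 0.927) in NSC, with 0.430 to 1.15 over the pairings. Malat1, at 0.939 (0.698 to 1.25), was among the least different of the 9.

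Between NSC and ESC-FCS the only gene past 2-fold was Gas5, higher in NSC at 2.24 (1.19 to 4.32), where 20.9% of 3599 genes were past 2-fold higher and 18.4% lower, 39.3% in all. Gas5 was above 1 in each of the 4 batch pairings, from 1.12 to 5.42, but its log2 ratio of 1.16 went below 2-fold with equal weight for each cell (0.91), with median-ratio size factors (0.86) and by reads (0.84), and changed sign per spike-in molecule (-0.18). By reads Snhg12 was past 2-fold instead, lower in NSC at a log2 ratio of -1.11. Malat1 was lower in NSC at 0.690 (0.508 to 0.927) and reached from 0.526 to 1.06 over the pairings. For Neat1, Snhg5 and Snhg8 the ratio was 1.49, with intervals that held 1. Snhg3 stood at a log2 ratio of -0.58, and at 0.47 when only annotated ends were counted.

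In each of these comparisons the share of the 9 genes past 2-fold was at or below that of all genes, and the median log2 ratio of the 9 genes was -0.11 (ESC-FCS against ESC-2i), -0.42 (NSC against ESC-2i) and 0.08 (NSC against ESC-FCS), beside -0.07, -0.06 and 0.05 over all genes. Ratios relative to the spike-in RNA differed, since cells of the populations had unlike numbers of molecules per spike-in molecule. Per spike-in molecule the median gene moved to a log2 ratio of 0.98, -0.35 and -1.29 in the same order. The genes past 2-fold that were higher became 93.4% in place of 36.1%, 30.1% in place of 44.2% and 8.96% in place of 53.1%. On that scale Gas5 stood at a log2 ratio of -0.70 and Snhg6 at -0.13 between ESC-FCS and ESC-2i, and both were no longer past 2-fold. Instead 4 of the 9 genes were past 2-fold higher in ESC-FCS (Malat1, Snhg3, Snhg8 and Snhg12) and none lower. Between NSC and ESC-FCS 5 were past 2-fold lower in NSC on that scale (Malat1, Snhg1, Snhg3, Snhg6 and Snhg12) and none higher, so that the direction of the calls of both comparisons turned with the scale. With median-ratio scaling the median gene stood at -0.31 between NSC and ESC-2i, where 32.9% of the genes past 2-fold were higher, and at -0.15 between NSC and ESC-FCS.

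**Figure D3:**
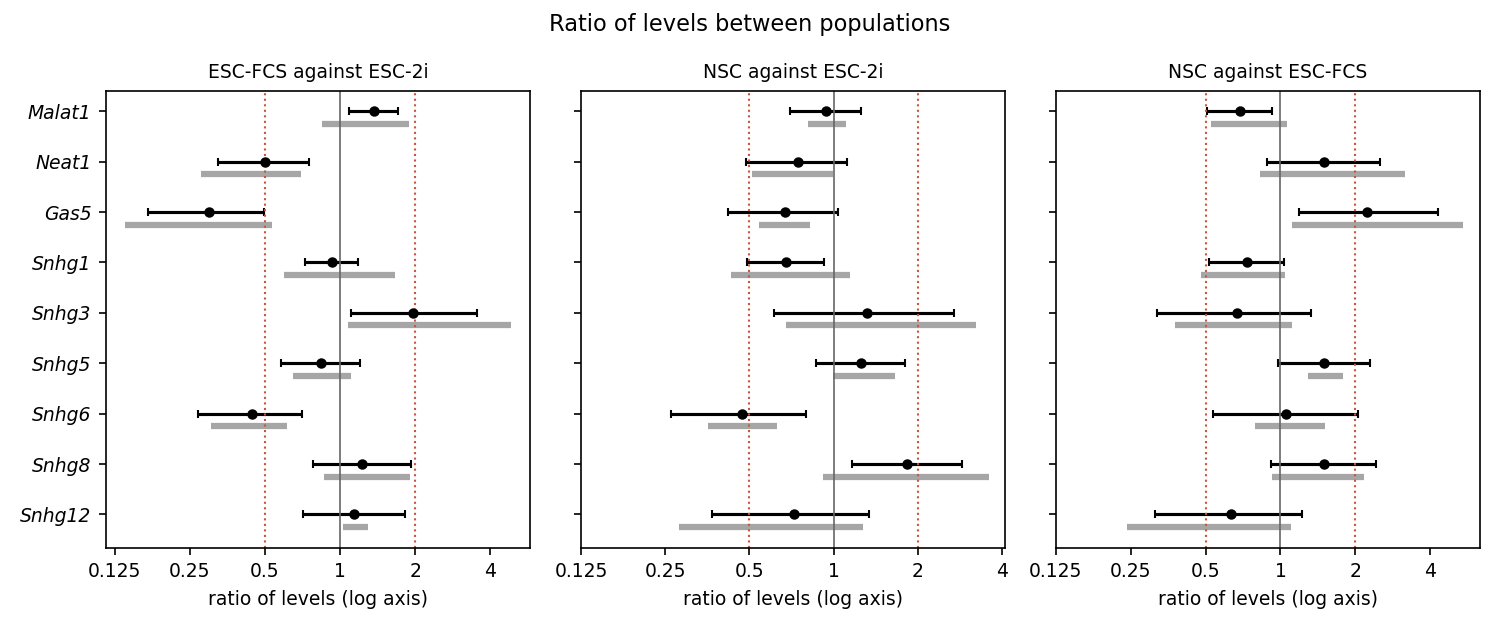
Ratio of the pooled levels (x axis, log scale; the dotted lines mark 2-fold) for each of the 9 genes in the 3 comparisons between populations; points are the ratios, whiskers their exact 95% counting intervals, and grey bars the range over the 4 pairings of library batches. Gas5 and Snhg6 lie to the left of the 2-fold line in ESC-FCS against ESC-2i, at 0.298 and 0.443.

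Variability between the cells of a population was compared with technical noise estimated from the spike-in RNA, by a test that asks whether the squared coefficient of variation (CV2) exceeds the technical one by a margin of 0.25, with Benjamini-Hochberg adjustment over all genes tested and a threshold of 0.1. In simulated counts this test called more unchanged genes than its threshold states, most so in NSC. Few spike-in RNAs entered the fit of technical noise: 9 for ESC-FCS, 11 for NSC and 16 for ESC-2i. The size factors came from 78, 45 and 229 genes and from 5, 8 and 12 spike-in RNAs, in the same order. The technical values and p-values below rest on these small numbers. In ESC-2i 1 of 9 genes was called, beside 0.719% of 3615 genes. It was Snhg1, whose CV2 of 1.03 stood above a technical value of 0.249 (adjusted p = 0.0684). Cell F3 held 33 of the 186 Snhg1 molecules at a depth of 14998, all at the main site, and the call was lost without this cell (adjusted p = 1). Malat1 in ESC-2i had a CV2 of 0.842 against 0.272 and was not called (adjusted p = 0.910).

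In ESC-FCS 2 of 9 genes were called, beside 3.85% of 2026 genes. Malat1 reached a CV2 of 1.78, above a technical value of 0.423 (adjusted p = 9.01e-05). The 3 cells with the most Malat1 held 50.3% of its molecules, with 39, 17 and 17, whereas 12 of 33 cells held 1 molecule and 5 held none. In the highest cell, C9, the 39 molecules lay at 9 positions and were backed by 595 reads, and the same cell had the most Neat1 molecules (8) of ESC-FCS. Without library batch 1, which held C9, Malat1 was no longer called (adjusted p = 1.00). Snhg1 was called with a CV2 of 1.46 against 0.524 (adjusted p = 0.0611), and was lost without either batch and with cells of at least 2000 molecules only. Gas5 had a CV2 of 4.00 against 2.18 and missed the threshold (adjusted p = 0.226).

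In NSC 6 of the 9 genes were abundant enough for the test and 1 was called, beside 2.16% of 1156 genes. Neat1 reached a CV2 of 5.13, above a technical value of 1.57 (adjusted p = 8.09e-07). Cells C5 and E5 held 7 and 6 of its 32 molecules, 6 and 5 of them at the main site, whereas 25 of 41 cells had none. Cell E5 had 1955 molecules in all, and without library batch 2, which held it, the adjusted p was 0.509. With cells of at least 2000 molecules alone the call was lost too. Malat1 and Snhg1 in ESC-FCS and Neat1 in NSC stayed called when the cell with the most molecules was left out. The other genes did not pass in any population.

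**Figure D4:**
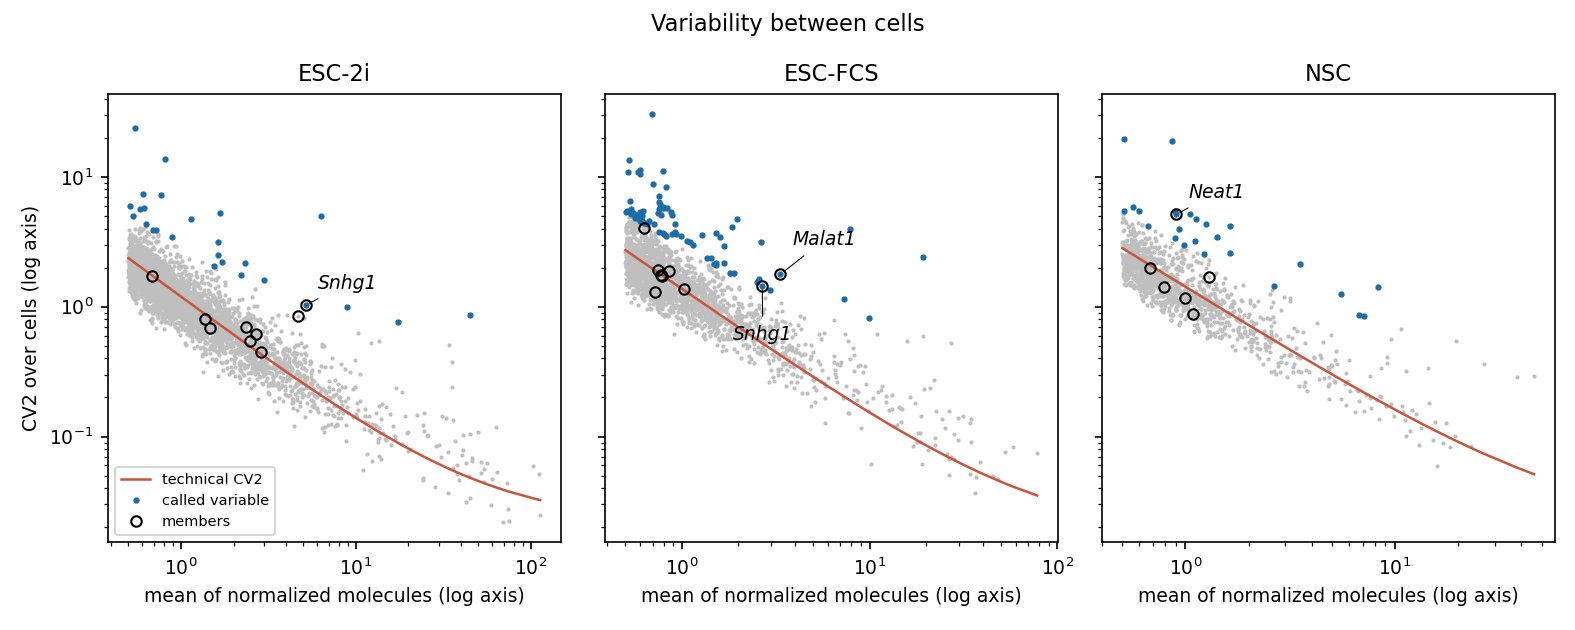
CV2 over cells (y axis, log scale) against the mean of normalized molecules (x axis, log scale) for genes in each population; grey points are genes, blue points those called, the line is the technical CV2 fitted to spike-in RNA and circles are the 9 genes. Snhg1 in ESC-2i, Malat1 and Snhg1 in ESC-FCS and Neat1 in NSC are called, at CV2 of 1.03, 1.78, 1.46 and 5.13.

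Levels of the host genes were also compared with each other over the cells of a population. The Spearman correlation of levels over cells had a median over the 21 pairs of host genes of -0.06 in NSC and 0.07 in each ESC population, and for Malat1 with Neat1 it was 0.27 in ESC-2i and close to 0 in the other two. Single pairs of host genes ran from -0.34 to 0.44 in NSC, from -0.43 to 0.39 in ESC-FCS and from -0.29 to 0.39 in ESC-2i. At these counts a weak correlation can be read neither as a relation nor as the absence of one. Cells of a library batch also share their preparation.

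Levels were also compared between libraries of ESC-FCS cells made apart, where day, culture, depth and preparation cannot be told apart. Control cells and main ESC-FCS cells carry the same growth conditions, yet 3 of the 9 genes were past 2-fold between them, beside 9.21% of 4063 genes lower and 15.9% higher in the control cells, 25.2% in all. Malat1 stood at 0.463 (0.340 to 0.623) and Neat1 at 0.318 (0.139 to 0.662) in the control cells. Snhg5 was higher at 2.14 (1.498 to 3.10), and Snhg3 and Snhg1 stood at 1.89 (1.18 to 3.08) and 1.48 (1.15 to 1.91). Gas5 was at 0.852 per 10000 in control cells and 0.794 in ESC-FCS cells, a ratio of 1.07 (0.533 to 2.17), while the log2 ratio by reads was 1.16. By molecules the Gas5 level of single ESC-FCS cells was thus alike in separate sets of cells. In contrast, the ratios of Malat1 and Neat1 between both sets of ESC-FCS cells lay further from 1 than those between the populations.

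The ESC-FCS pool was set against the control cells made on the same day. Of 8 genes with enough molecules 2 were past 2-fold, beside 11.2% of 4056 genes higher and 4.29% lower, 15.5% in all. Gas5 was higher in the pool at 3.41 (1.98 to 6.10), with 52 molecules and 2.90 per 10000, a level like that of ESC-2i cells. The count of reads gave no such difference, as the 52 molecules were backed by 99 reads and the 19 of the control cells by 93, and the log2 ratio by reads was -0.034. Malat1 was lower in the pool at 0.415 (0.244 to 0.681). Snhg1, Snhg3, Snhg5, Snhg6, Snhg8 and Snhg12 had ratios of 0.643 to 1.36 with intervals that held 1.

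In the ESC-2i pools all 9 genes were lower than in ESC-2i cells past 2-fold, beside 15% of 8494 genes lower and 38.8% higher, 53.8% in all. The ratios ran from 0.0346 for Snhg1 (0.0197 to 0.0568) to 0.486 for Snhg5, with a median of 0.113, whereas the median log2 ratio over all genes was 0.65. The first pool gave 40 molecules of Malat1, 93 of Snhg5 and 10 of Snhg1, and the second 11, 24 and 7, at similar totals of 479483 and 494799 molecules. Snhg5 differed most between the pools, with a ratio to the cells of 0.785 (0.582 to 1.06) in the first and 0.196 (0.120 to 0.311) in the second, so that 8 of 9 genes were past 2-fold in the first pool alone. The second pool held 0.222 molecules of Malat1 per 10000 and the first 0.834, against 4.70 in the cells. Malat1 ends were also distributed differently, as 17 of 51 molecules lay in the last 200 nt in the pools (33.3%, 20.8 to 47.9%) against 9 of 173 in the cells (5.20%, 2.41 to 9.65%), with 11 of 40 in the first pool and 6 of 11 in the second. The pools differed from the cells in lysis buffer and purification and held 48 cells each, and these differences cannot be told apart here.

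**Figure D5:**
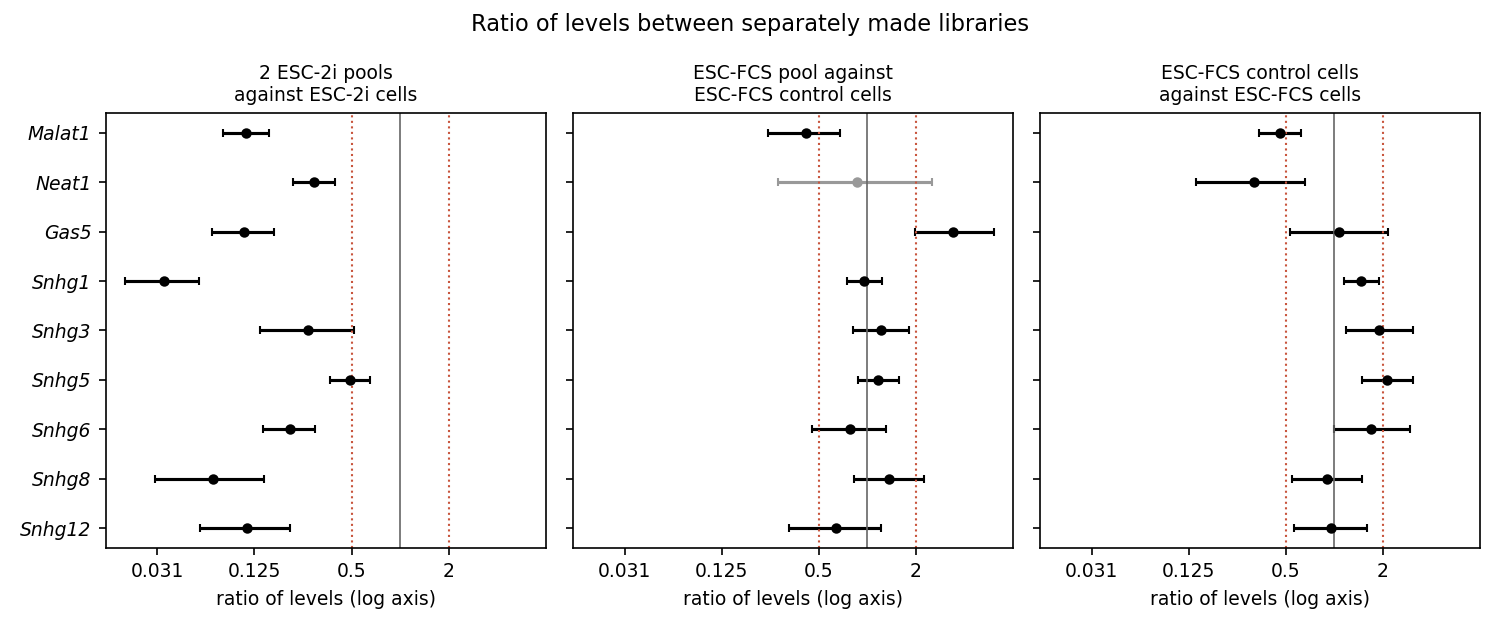
Ratio of levels between separately made libraries (x axis, log scale; dotted lines mark 2-fold) for the ESC-2i pools against ESC-2i cells, the ESC-FCS pool against control cells, and control cells against ESC-FCS cells; points are ratios, whiskers exact 95% counting intervals, and the grey point (Neat1) had too few molecules for the count. All 9 genes lie left of the 2-fold line in the first panel, from 0.0346 to 0.486.

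Genes related to the 9 by role were followed as lists, and their counts are read against the shares of all genes past 2-fold: 14.5% lower and 8.17% higher between ESC-FCS and ESC-2i, 24.3% and 19.3% between NSC and ESC-2i, and 15% and 38.8% in the ESC-2i pools. Of 15 further noncoding snoRNA hosts 9 were found, and 6 had enough molecules between ESC-FCS and ESC-2i, of which 1 was past 2-fold, Snhg9 at 2.60 (1.11 to 6.41). Between NSC and ESC-2i, Snhg17 was higher at 2.34 (1.33 to 4.12) and Snhg20 lower at 0.473 (0.258 to 0.815), out of 5. In the ESC-2i pools 5 of 5 such hosts were lower past 2-fold, among them Zfas1 at 0.126, Snhg20 at 0.0507 and Epb41l4aos at 0.0415. Of the protein-coding snoRNA hosts, 19 of 32 were lower and 3 higher in these pools, with a median ratio of 0.379. In the populations 2 of 31 protein-coding hosts were past 2-fold between ESC-FCS and ESC-2i, both higher in ESC-FCS and among them Tpt1 at 3.36 (2.44 to 4.68), and 2 of 31 between NSC and ESC-2i, Tpt1 at 2.89 (2.01 to 4.16) and Cnbp at 2.27 (1.85 to 2.78). The lower levels in the ESC-2i pools thus extended to hosts outside the 9 genes. Most genes of the protein-coding list code for ribosomal proteins, and ribosomal protein genes that host no snoRNA were not set beside them. Whether the lower levels go with hosting a snoRNA was not tested.

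Paraspeckle protein genes were set beside Neat1, and 2 of 13 were past 2-fold lower in ESC-FCS than in ESC-2i, among them Rbm14 at 0.428 (0.190 to 0.875), and none higher. Between NSC and ESC-2i 2 of 13 genes were lower, among them Rbm14 at 0.319 (0.0980 to 0.812), and 2 were higher, including Nono, a core paraspeckle protein, at 2.35 (1.76 to 3.14). Of the snoRNP protein genes 1 of 15 was higher and 1 lower between ESC-FCS and ESC-2i, Nolc1 at 2.04 (1.24 to 3.39) and Dkc1, the pseudouridine synthase, at 0.495 (0.179 to 1.19). None of 9 nonsense-mediated decay factors was past 2-fold in that comparison, and 1 of 10 was between NSC and ESC-2i, Upf3a at 3.09 (1.30 to 7.51). Of other long noncoding RNAs 3 of 9 were past 2-fold between ESC-FCS and ESC-2i, 1 of them higher, Platr17 at 4.74 (2.40 to 10.0), and 4 of 6 were lower in NSC than in ESC-2i. Lncenc1 had 1 molecule in NSC, 90 in ESC-FCS and 150 in ESC-2i, and Meg3 had 0, 32 and 57.

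Over the 8 library batches of single cells, the genes whose levels followed each member most closely were named among 311 genes with at least 20 molecules in every batch. Snhg5 was closest to Hnrnpa2b1 (Pearson r = 0.93) and Fscn1 (0.91), Gas5 to Gm2830 (0.89) and Zfp706 (0.85), and Neat1 to Bex3 (0.88) and 1810022K09Rik (0.87). For Malat1 these were Rps26 and Gm20390 (both 0.79), for Snhg1 Etf1 and Fkbp3 (both 0.81), for Snhg3 Sub1 and Zfp207 (both 0.76), for Snhg6 Gpx1 and Fkbp3 (both 0.82), for Snhg8 Sem1 (0.83) and Rpl22l1 (0.82), and for Snhg12 Slc25a3 and Phb2 (both 0.80). The best of 311 genes over 8 points is high in any case, the points share libraries and depth, and the members had as few as 3 molecules in a batch, so these values are a description only.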

How the data were processed

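Counts of molecules per polyadenylation site and cell were used as deposited by the authors, who had sorted reads by batch and cell barcode, trimmed terminal As, aligned them with GSNAP to GRCm38, removed reads from A-rich stretches, assigned ends to genes up to a window downstream, collapsed molecular barcodes and merged nearby ends. HTSeq and R 3.0.2 are named in the submitters' processing notes. The gene table held 19736 genes and 107 cells, and its values for the 9 genes equalled the sums over sites, with 0 differences (3 other genes held 4 values that differed). Of its identifiers 19321 were in GENCODE M21 and 415 were not.

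Molecules were pooled over cells of a population, scaled to 10000 molecules on genes and compared as ratios with exact conditional intervals, and genes whose molecules in both groups summed to 20 or more were called past 2-fold. A group at 0 was set to a floor of 3 molecules. Total molecules per library were 1079 to 21049 in cells of the populations and 179155 to 494799 in pools, and this depth sets the precision. With no replicate cultures no test was made between populations. The variability test was written in Python 3.11.15 (numpy 2.4.6, pandas 2.3.3, scipy 1.17.1) with a CV2 margin of 0.25 and normalized means above 0.5, and was tested on simulated data.

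All 9 listed genes were named, with sites that held at least 5% of a gene's molecules, at most 3 a gene, the 2 genes with the most similar levels, and from each list of related genes those past 2-fold with the most molecules. The genes, lists and tests were chosen with earlier results of these data known. Other scalings, filters, cells and thresholds were tried, and the counting of Snhg8 was varied after seeing the data. Values of some genes of these lists are not reported here.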

Additional observations from a re-analysis of the deposited data

How the results depend on the processing

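No paired analysis was possible because well names only name cells. Without one of the ESC-2i pools the count of 9 genes lower than in ESC-2i cells stayed at 8 to 9. Between ESC-FCS and ESC-2i, where 2 of the 9 genes were past 2-fold, 4 were per spike-in molecule, all higher in ESC-FCS where the main calls were both lower, and 4 were with median-ratio size factors, by reads, with all cells above 1000 molecules, at 1.5-fold and without the highest cell of each gene, and 1 was at 3-fold or without batch 2. By median-ratio size factors and by reads 1 of the 4 was higher and 3 were lower. Between NSC and ESC-2i (1 gene), 0 were with equal weight for each cell or at 3-fold, 2 at 1.5-fold, 3 without batch 1, and 2 with Snhg8 as the sum of its identifiers or under Ndst3 alone. Between NSC and ESC-FCS (1 gene, higher in NSC), 5 were per spike-in molecule, all lower, 0 with equal weight, median-ratio size factors or at 3-fold, and 2 at 1.5-fold, while the 1 gene by reads was Snhg12, lower, in place of Gas5. Gas5 reversed there per spike-in molecule (log2 ratio -0.18), as it did by reads between the ESC-FCS pool and the control cells (-0.034). For that pool (2 genes) 0 were past 2-fold by reads and 1 at 3-fold, and for the control cells against ESC-FCS (3 genes) 5 by reads and at 1.5-fold and 1 at 3-fold. The share of the main site gave 1 gene in each comparison. Between the ESC populations it gave 0 with at least 50 molecules, without batch 1, without batch 2 and by reads. Between NSC and ESC-2i it gave 0 with at least 50 molecules, at 20 points and by reads. Between NSC and ESC-FCS it gave 2 with at least 10 molecules and by reads, and 0 with at least 50 molecules, at 20 points and without batch 1. Variability calls in ESC-2i (1 gene) came to 2 with no margin and 0 with a margin of 0.5, without either batch, without the highest cell and with total molecules as size factors. In ESC-FCS (2 genes) they came to 1 with a margin of 0.5, with at least 2000 molecules, without batch 2 and with total molecules, and 0 without batch 1. In NSC (1 gene) they came to 0 with a lowest mean of 1, which leaves Neat1 untested, with at least 2000 molecules and without batch 2. The cause of the other changes was not tested. The remaining 84 settings left these counts within 1.5 times of their value. The low counts, 13 to 32 molecules in several groups, limit every ratio and share of Gas5, Snhg3, Snhg6, Snhg12 and Neat1.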
